A study of Rattus norvegicus with 5 samples.

Results

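Smooth muscle cells of irradiated rat skin were taken from single-cell RNA libraries as the barcodes in which Acta2, Tagln and Myh11 together made up at least 1% of the unique molecular identifiers (UMIs, counts of captured RNA molecules). A member also needed at least 1 Myh11 UMI, no Ptprc UMI (the pan-leukocyte surface phosphatase) and less than 1% of UMIs from the fibroblast genes Col1a1, Col3a1 and Dcn. Barcodes were first kept at 500 or more UMIs, 300 or more detected genes and at most 20% mitochondrial UMIs. This left 43408 barcodes, of which 1724 were smooth muscle members.

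The study followed skin after a single exposure of a shaved, otherwise lead-shielded buttock field to an electron beam in male Sprague-Dawley (SD) rats. There were 5 libraries, 1 from skin that received no radiation (control) and 1 each from skin at 7, 14, 28 and 60 d after irradiation, with no genetic change or other agent in any group. The labels give neither the dose nor how many animals entered each library. The text of the study states the dose and the age of the rats, which are not reported here, and describes no 60 d library. Tissue was dissociated enzymatically and sorted to remove debris and dead cells, so a share of barcodes also reflects which cells came through that step. With 1 library per group no test of a difference was possible, and time after irradiation, animal, dissociation and sequencing run cannot be told apart. Every interval given is an exact 95% interval that covers counting error only, and all 4 comparisons share the control library.

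Smooth muscle in skin forms the wall of arterioles and small veins and, as bundles called arrector pili, the muscles that erect hairs. Its cells contract when calcium activates myosin light chain kinase and myosin slides along actin filaments built from the smooth muscle actins Acta2 and Actg2. Calponin, smoothelin, leiomodin and tropomyosins organise those filaments, and receptors for vasopressin, endothelin, noradrenaline and neuropeptide Y set the tone of the vessel. Much of this program is switched on by serum response factor (SRF), which binds a short DNA element named the CArG box and serves the immediate early genes as well.

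Because the CArG box links both gene groups, the 250 bases before the annotated start of each gene were searched on both strands for a pair of C, 6 letters that are each A or T, and a pair of G. RefSeq promoters of the GRCr8 build were used, and 501 of 33469 (1.497%) held such a box. Of the actin filament regulators, 1 of 10 with a promoter in the table held one (Fhl1), against 0 of 9 myosin genes, 0 of 15 calcium-handling genes and 4 of 19 immediate early genes (21.1%), which were Egr1, Egr2, Klf6 and Zfp36. When 1 middle letter was allowed to be C or G, an alternative chosen after seeing the data, 2703 of all promoters (8.08%) held a match, and 2 of the 10 actin filament regulators, Acta2 now among them. The sites shown are those of the contractile genes and of a pair of immediate early genes described further on, written 5′ to 3′ along the gene's strand with the box in capitals.
Acta2, chr1:241172618-241172647, minus strand, 134 bases before the start, 1 middle letter C: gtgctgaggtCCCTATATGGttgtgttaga
Acta2, chr1:241172568-241172597, minus strand, 84 bases before the start, 1 middle letter G: tgtctttgctCCTTGTTTGGgaagcgagtg
Fhl1, chrX:139638384-139638413, plus strand, 102 bases before the start: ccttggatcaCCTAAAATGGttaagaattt
Egr2, chr20:21054505-21054534, minus strand, 83 bases before the start: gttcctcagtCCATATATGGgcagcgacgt
Zfp36, chr1:92799121-92799150, minus strand, 32 bases before the start: ccgggccgccCCATAAAAGGcgaaagctcc
All these sites lie upstream of the annotated transcript. A match describes these letters only, and Tagln, Myh11, Myl9 and Lmod1 are named here without a promoter.

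The 5 libraries held 4370 to 11304 kept barcodes and 268 to 398 members. The share of members was 2.64% in the control library (95% interval 2.34 to 2.97). It was 3.20% (2.89 to 3.54) in the 7 d library, 7.28% (6.52 to 8.09) in the 14 d library, 4.18% (3.78 to 4.62) in the 28 d library and 4.66% (4.22 to 5.12) in the 60 d library. The 14 d share stood above the other libraries, whose intervals it did not overlap. That library also kept the fewest barcodes and only 76 fibroblast barcodes, against 3299 in the control and 6989 at 7 d. Among barcodes without Ptprc the shares were 2.76%, 3.401%, 9.10%, 4.95% and 4.86% in the order control, 7, 14, 28 and 60 d, the order used for every list of 5 values. Fewer cells of another type and more smooth muscle cells cannot be told apart from such shares.

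**Figure D1:**
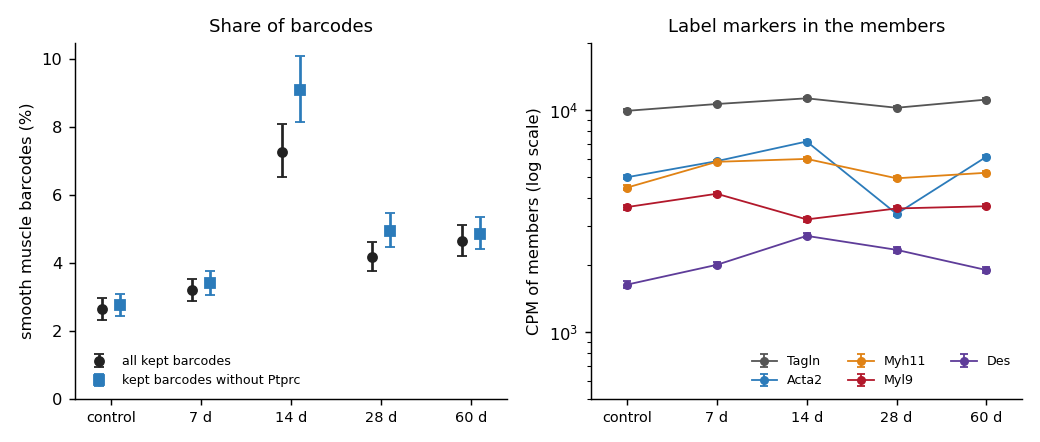
Left, the share of kept barcodes that were smooth muscle members in each library (percent, circles) and the same among barcodes without Ptprc (squares), with exact 95% binomial intervals. Right, the level of the 5 label genes in the members (CPM, log axis) with exact Poisson intervals. The share peaked at 7.28% in the 14 d library, and Tagln stayed between 9872 and 11240 CPM.

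Levels were obtained by summing the UMIs of all members of a library and scaling to counts per 1e6 UMIs (CPM), from 1663123 to 2701548 member UMIs per library. The defining genes were used by the rule, so their levels are a description. The actin Acta2 stood at 4962, 5862, 7186, 3397 and 6139.7 CPM, the actin-binding protein Tagln at 9872, 10596, 11239.6, 10192 and 11095 CPM and the heavy chain of smooth muscle myosin, Myh11, at 4456, 5823, 6000.3, 4909 and 5199 CPM. The regulatory light chain Myl9 (3643, 4182, 3207, 3591 and 3675 CPM) and the intermediate filament desmin, Des (1631, 2003, 2704, 2339.6 and 1898 CPM), were not part of the rule, and both were at most 69.6 CPM in the remaining barcodes. The gate genes took a median of 1.65% to 2.11% of a member's UMIs. Near the threshold, 6 to 34 members per library lay just inside 1% and 11 to 18 barcodes just outside it, and with a threshold of 2% the shares fell to 0.965%, 1.64%, 3.87%, 1.13% and 2.67%.

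The genes that stood furthest above the other barcodes in every library, gate genes aside, were Map3k7cl, Rergl, Cnn1, Xirp1, Pcp4l1 and Actg2. Map3k7cl was at 567, 663, 455, 559.8 and 633 CPM in the members and at 1.77 to 6.15 CPM in the other barcodes. Rergl, a small GTPase relative used as a marker of vascular smooth muscle, was at 211, 219, 144, 170.2 and 324 CPM against 0.354 to 1.44 CPM. Npy1r, the receptor through which sympathetic neuropeptide Y constricts vessels, was at 493, 505, 451, 476 and 527 CPM against 2.73 to 12.3 CPM. Among markers of other lineages, all 12 keratinocyte markers had UMIs in the members of every library and summed to 1143, 809, 2094, 4279 and 3305 CPM, against 44504 to 83742 CPM in barcodes gated as keratinocytes. Fibroblast markers summed to 210.1, 271, 6.23, 71.0 and 46.5 CPM, endothelial markers to 241 to 436 CPM, most of it Esam, and immune markers to 31.5, 85.5, 258, 441 and 48.8 CPM. The median UMI count per member was 6215, 7189, 6191, 3714 and 6278.5 and the median mitochondrial share 5.76%, 5.97%, 5.96%, 9.41% and 8.19%. The 28 d members were thus the shallowest and, with those of 60 d, the richest in mitochondrial RNA, and the part of depth, free RNA and mitochondrial RNA in the results below was not tested.

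A gene was compared where it had at least 50 UMIs over the members of both libraries and 20 CPM in either, and was called at 2-fold. At 7 d, 84 of 4941 genes were 2-fold higher (1.7%) and 41 lower (0.83%). At 14 d, 142 of 4948 were higher (2.87%) and 153 lower (3.09%). At 28 d, 241 of 5029 were higher (4.79%) and 440 lower (8.75%), and at 60 d 235 of 5121 were higher (4.59%) and 518 lower (10.1%). When mitochondrial rows were left out of the scaling, an alternative chosen after seeing the data, 317 were higher and 312 lower at 28 d, and 339 were higher and 423 lower at 60 d. The excess of lower over higher genes was thus absent at 28 d and smaller at 60 d under that scaling, which moved the median of all genes by 0.14 at 28 d and 0.11 at 60 d on the log2 scale.

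Actin filament regulators stood mostly at or above their control level after irradiation, and few reached 2-fold. Of 10 measured actin filament regulators, 0, 2, 2 and 1 were 2-fold higher at 7, 14, 28 and 60 d and none was 2-fold lower. Of all genes 1.7%, 2.87%, 4.79% and 4.59% were 2-fold higher. The list had median log2 ratios of 0.44, 0.60, 0.49 and 0.13 beside 0.04, -0.05, -0.07 and 0.02 over all genes. Lmod1, a leiomodin that nucleates actin filaments, stood at 361, 553, 689, 819.5 and 811 CPM. Its level was lowest in the control and reached 2.27-fold (95% interval 2.06 to 2.503) at 28 d and 2.25-fold (95% interval 2.05 to 2.46) at 60 d, while the other barcodes held 2.45 to 14.4 CPM. Filip1l, a filamin A interacting protein outside that list, stood at 354, 686, 1115, 1147 and 1173 CPM. It was 3.15-fold (95% interval 2.88 to 3.45) higher at 14 d and 3.32-fold (95% interval 3.04 to 3.62) higher at 60 d. Actg2, the enteric smooth muscle actin, peaked at 14 d with 393, 557, 1042, 698 and 437 CPM and was within 1.11-fold of the control at 60 d. Smoothelin, Smtn, which marks contractile smooth muscle, followed a similar order with 127, 174, 289.8, 206 and 205 CPM. Calponin, Cnn1, stood at 261, 351, 409, 392 and 283 CPM, below 2-fold in every library. At a gate of 2% the 60 d count was 0, and without the members of clusters 5, 7 and 8, described further on, the 28 d count was 1.

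Myosin and its regulators showed smaller differences. Of all genes 1.7%, 2.87%, 4.79% and 4.59% were 2-fold higher at 7, 14, 28 and 60 d, and 0.83%, 3.09%, 8.75% and 10.1% lower. Lists as short as those below would hold few called genes at these shares. Of 10 measured, only Ppp1r12b, a subunit of the myosin phosphatase, reached 2-fold, at 14 d, with 45.7, 65.9, 94.8, 79.97 and 75.2 CPM. Mylk, the myosin light chain kinase, stood at 1365, 1591, 1329, 1369.7 and 1494 CPM. No calcium channel, pump or calcium-handling gene of the 13 or 14 measured reached 2-fold in any library. Among these was phospholamban, Pln, the brake on the calcium pump, at 750.3, 931, 647, 779 and 1215 CPM, highest at 60 d (1.62-fold (95% interval 1.52 to 1.73)). Of 16 adhesion, dense body and intermediate filament genes, the adhesion molecule Mcam was 2-fold higher at 28 d, with 138, 203, 271, 429 and 276 CPM. Transcription factors of the lineage were nearly level. Myocd, the SRF coactivator that drives the contractile program, stood at 68.3, 60.3, 63.2, 61.9 and 53.2 CPM and Srf at 39.2, 39.98, 54.6, 46.9 and 52.9 CPM, and of 12 measured factors only Hey2, a Notch target, passed 2-fold, being lower at 60 d (58.2, 53.7, 70.9, 61.9 and 28.7 CPM).

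Receptors for constricting signals differed from one another. Of 19 in the list, 5 or 6 were abundant enough to compare. Avpr1a, the vasopressin V1a receptor, stood at 645, 627, 334, 312 and 372 CPM. It was level with the control at 7 d and 0.484 times (95% interval 0.435 to 0.538) the control at 28 d, a log2 ratio of -1.05 that was -0.74 without clusters 5, 7 and 8, described further on. Ednrb, the endothelin B receptor, stood at 63.5, 43.7, 32.6, 42.7 and 10.4 CPM and at 60 d was 0.164 times (95% interval 0.104 to 0.251) the control level. Ednra, the endothelin A receptor that constricts arteries, stood at 85.5, 93.3, 67.1, 88.4 and 121 CPM and did not reach 2-fold in any library. Adra1d, an alpha-1 adrenoceptor, stood at 10.7, 17.4, 16.8, 11.4 and 32.8 CPM, and was 3.07-fold (95% interval 1.83 to 5.41) higher at 60 d. The serotonin receptor Htr2a was lower at 28 and 60 d (24.9, 13.3, 20.6, 8.42 and 9.68 CPM). The neuropeptide Y receptor Npy1r, whose levels are given above, did not reach 2-fold in any library.

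Few genes that damp contraction reached 2-fold. The list of relaxation genes and G protein brakes had 10, 10, 9 and 10 measured genes at 7, 14, 28 and 60 d. In each library 1 of them was 2-fold higher, Rgs16 at 7 d and Rgs4 later, and none lower. Of all genes 1.7%, 2.87%, 4.79% and 4.59% were 2-fold higher. The list had median log2 ratios of 0.12, 0.25, 0.13 and 0.42. Rgs4, which shuts off G protein signals downstream of constrictor receptors, stood at 95.6, 190.3, 196, 245 and 292 CPM. It was lowest in the control and 3.05-fold (95% interval 2.57 to 3.64) higher at 60 d. Rgs3 (27.3, 46.3, 88.6, 72.8 and 89.7 CPM) and the small GTPase Rem1, an inhibitor of calcium channels (23.1, 47.01, 28.7, 71.6 and 72.98 CPM), were also lowest in the control. Both are outside that list and were named for their high ratios at 60 d. Gucy1a1 and Gucy1b1 form the soluble guanylate cyclase that lets nitric oxide relax the vessel. They stood at 227, 229, 223, 197 and 386 CPM and 179, 222, 198, 195 and 292 CPM, and the 60 d library was the highest in both, where Gucy1a1 was 1.698-fold (95% interval 1.51 to 1.91) higher. Rgs16 was 2-fold higher at 7 d, and without clusters 5, 7 and 8 at 60 d too, with a log2 ratio of 1.12 (18.4, 52.9, 22.99, 18.6 and 35.7 CPM), and over all libraries it stood at 482 CPM in cluster 6, described further on, against 12.1 CPM in the other members.

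**Figure D2:**
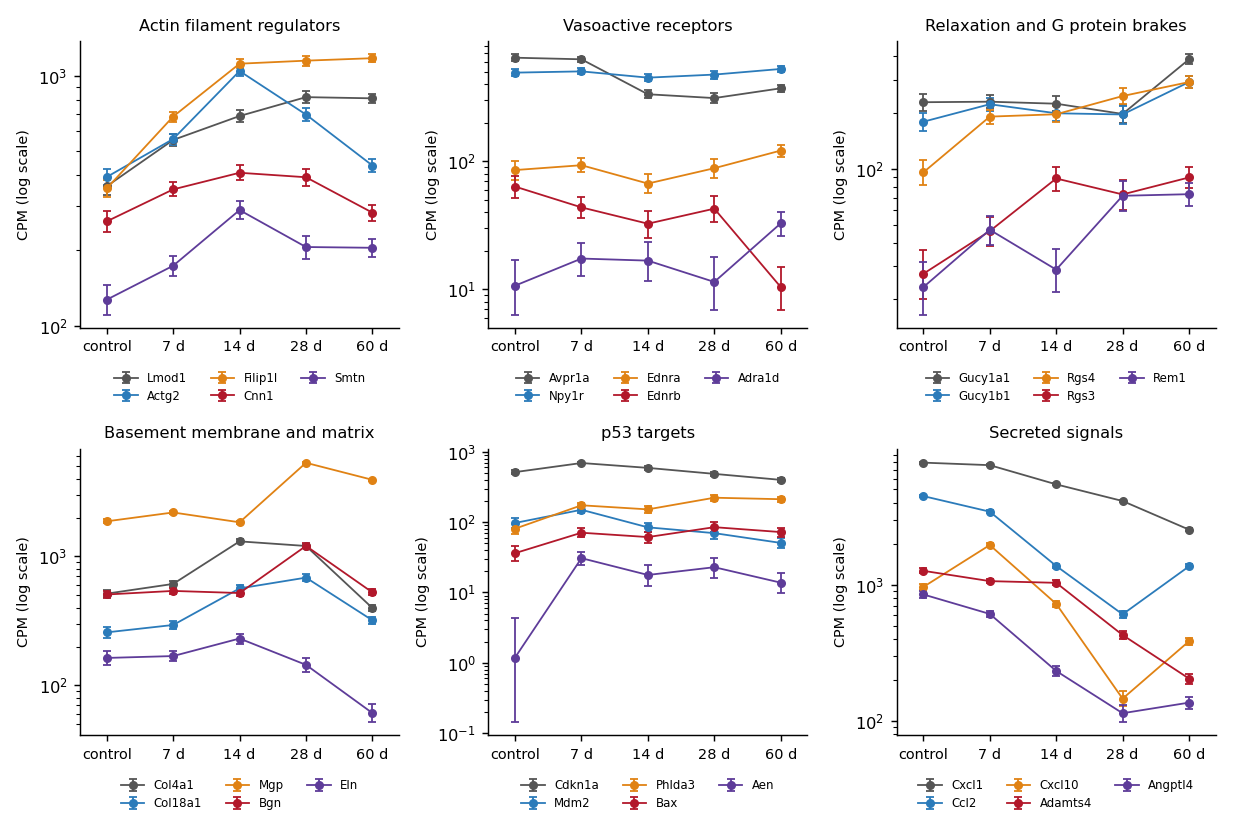
Levels in the smooth muscle members of each library (CPM, log axis) for genes grouped by role, with exact Poisson 95% intervals, 1 library per group. Lmod1 and Filip1l were lowest in the control, Avpr1a was lower from 14 d on, Rgs4 was highest at 60 d, Col4a1 was highest at 14 and 28 d, Aen rested on 2 UMIs in the control, and Cxcl1, Adamts4 and Angptl4 were below the control in every irradiated library.

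Interferon response genes were higher at 7 and 14 d. These are genes switched on in most cells by interferon, among them antiviral effectors and the class I molecules that present antigen. At 7 d, 15 of 23 measured were 2-fold higher, against 1.7% of all genes, with a median log2 ratio of 1.76. At 14 d it was 12 of 20 with a median of 1.48, at 28 d 5 of 15 with 0.50 and at 60 d 2 of 13 with -0.13. Of all genes 2.87%, 4.79% and 4.59% were 2-fold higher in these libraries. At 28 d 1 and at 60 d 2 of the measured interferon genes were 2-fold lower, against 8.75% and 10.1% of all genes. RT1-T24-3, a class I gene of the rat major histocompatibility complex, stood at 15.4, 327, 324, 80.6 and 43.2 CPM. The 7 d level was 21.2-fold (95% interval 14.4 to 32.6) that of the control, and the 60 d level 2.799-fold (95% interval 1.82 to 4.46). The antiviral GTPase Mx2 stood at 3.56, 72.9, 74.2, 30.7 and 7.82 CPM, from 6 UMIs in the control to 197 at 7 d. The ubiquitin-like modifier Isg15 (60.5, 259.9, 239, 72.8 and 45.4 CPM) and Ifi27 (569.8, 2737, 1945, 872 and 776 CPM) were high at 7 and 14 d, and at 28 d Isg15 stood at 1.202-fold (95% interval 0.916 to 1.58) of the control. Tap1, the peptide transporter for class I molecules, went the other way from these and stood at 60.5, 49.97, 41.7, 18.6 and 14.1 CPM. RT1 genes are near-identical copies, and reads may have been divided among them.

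The interferon difference was not particular to smooth muscle. RT1-T24-3 in fibroblasts stood at 7.77, 356, 522, 82.5 and 82.8 CPM, and in endothelial barcodes of the first 4 libraries at 113, 621, 717 and 163 CPM. The 60 d endothelial gate held 29 barcodes and is not given. Keratinocytes reached at most 15.7 CPM. At 7 d, 19 of 27 measured interferon genes were 2-fold higher in fibroblasts, 22 of 28 in endothelial barcodes and 7 of 15 in keratinocytes, where 3.09%, 5.64% and 6.56% of all compared genes of the respective gate were 2-fold higher.

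Targets of p53, the factor that responds to DNA damage, differed less in smooth muscle members. Of 17, 16, 16 and 17 measured, 3, 0, 3 and 2 were 2-fold higher, and 0, 0, 2 and 1 lower, with medians of 0.60, 0.20, 0.34 and 0.62. The shares over all genes were 1.7%, 2.87%, 4.79% and 4.59% higher and 0.83%, 3.09%, 8.75% and 10.1% lower. The 3 at 28 d were Phlda3, Bax and Perp, of which Perp is also a keratinocyte marker, and 8 of 10 measured keratinocyte markers were 2-fold higher in the 28 d members. The 28 d count was 1 at the 2% gate and 1 without clusters 5, 7 and 8, where the log2 ratio of Phlda3 was 0.95 in place of 1.46 and that of Bax 0.60 in place of 1.23. The cell cycle inhibitor Cdkn1a stood at 515, 693, 591, 486 and 399 CPM, 1.35-fold (95% interval 1.24 to 1.46) of the control at 7 d. In fibroblasts it stood at 184, 1043, 629.6, 602 and 277 CPM. The p53 ligase Mdm2 stood at 97.3, 149.9, 84.3, 69.7 and 50.6 CPM in the members and at 102, 669.6, 217, 354 and 142 CPM in fibroblasts. The range over the libraries was thus wider in fibroblasts for both genes, and at 7 d 9 of 17 p53 targets were 2-fold higher there, against 3.09% of all compared genes in fibroblasts. The difference between the cell types was not tested, having 1 library per group. Phlda3, which restrains Akt, stood at 80.7, 174, 152, 222 and 212 CPM in the members and the pro-apoptotic Bax at 36.2, 70.7, 61.3, 84.8 and 72.2 CPM, both lowest in the control, with Phlda3 2.62-fold (95% interval 2.17 to 3.19) higher at 60 d. The p53-induced nuclease Aen rested on 2 UMIs in the control and 83 at 7 d, a ratio of 25.9-fold (95% interval 6.94 to 217). Gdf15, a stress cytokine, was higher at 7 and 14 d and lower at 28 and 60 d, with 55.2, 88.5, 94.8, 21.04 and 17.9 CPM.

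**Figure D3:**
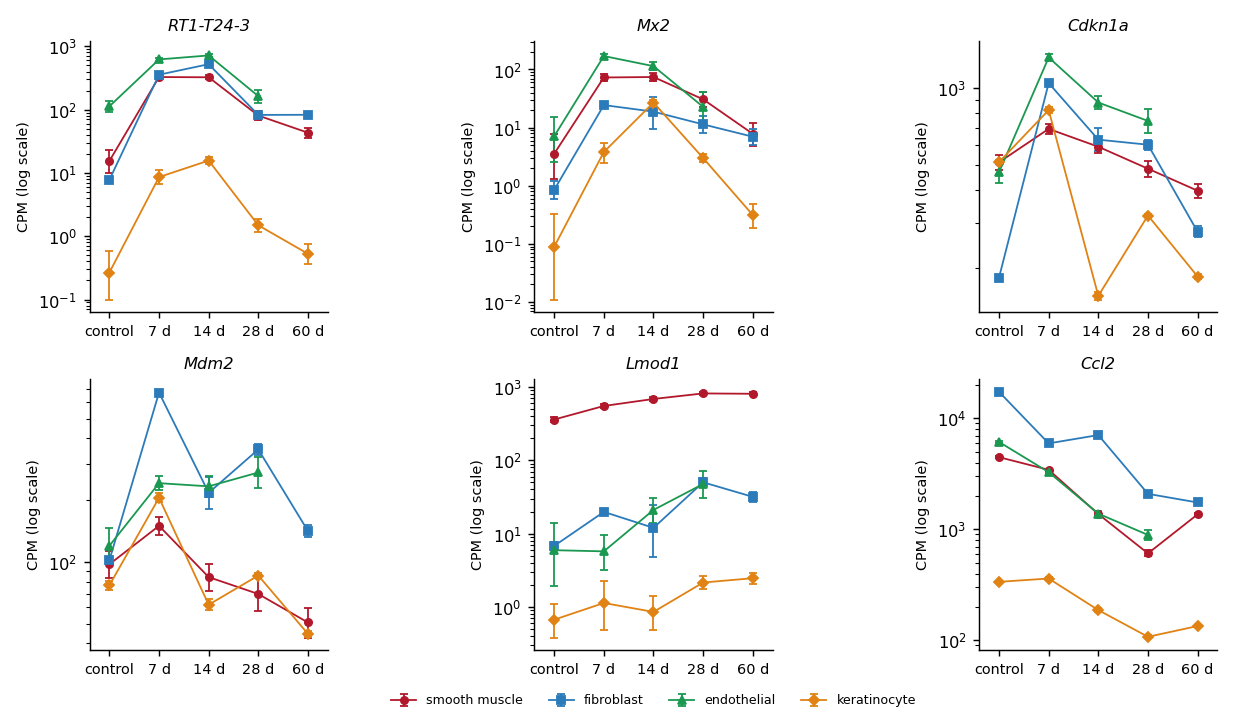
Levels in smooth muscle members and in barcodes gated as fibroblasts, endothelial cells and keratinocytes (CPM, log axis, exact Poisson 95% intervals; gates with at least 50 barcodes). RT1-T24-3 and Mx2 were higher at 7 and 14 d than in the control in every gate shown, Cdkn1a and Mdm2 had a wider range in fibroblasts than in smooth muscle, and Lmod1 was highest in smooth muscle, and Ccl2 was lower than the control in every irradiated library of smooth muscle and fibroblasts.

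Secreted inflammatory signals were abundant in the control members, and many were lower later. Of the measured chemokines, cytokines and adhesion molecules, 1 of 21 was 2-fold lower at 7 d, 7 of 20 at 14 d, 8 of 20 at 28 d and 15 of 20 at 60 d, against 0.83%, 3.09%, 8.75% and 10.1% of all genes. In the other direction Cxcl9 and Cxcl10 were 2-fold higher at 7 d and Cxcl12 at 14 d, and none at 28 or 60 d. The list had median log2 ratios of -0.07, -0.51, -0.90 and -1.48. Cxcl1, which draws neutrophils, stood at 7871, 7542, 5454, 4116 and 2538 CPM, and at 60 d it was 0.322 times (95% interval 0.313 to 0.332) the control level. Ccl2, which draws monocytes, stood at 4473, 3438, 1375, 607 and 1365 CPM. The interferon-induced chemokine Cxcl10 was highest at 7 d with 965, 1957, 725, 146 and 385 CPM. Vcam1, an adhesion molecule for leukocytes, stood at 44.5, 22.9, 15.8, 9.62 and 6.33 CPM, and Tnfaip6, which modifies hyaluronan in inflamed tissue, at 119.9, 114, 5.27, 30.1 and 3.72 CPM. Ccl2 in fibroblasts stood at 17333, 5952, 7075, 2089.6 and 1746 CPM, lower than the control in every irradiated library too, and 14 of 25 measured chemokine and adhesion genes were 2-fold lower in fibroblasts at 60 d, against 7.41% of all compared genes there. At a gate of 2% the 60 d count was 7 of 11.

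Among other secreted factors, Angptl4, an inhibitor of lipoprotein lipase, stood at 849, 611, 233, 114 and 137 CPM and the aggrecan-cleaving protease Adamts4 at 1266, 1064, 1034, 428 and 205 CPM, lowest at 28 d and at 60 d, respectively. Ccn3, a matricellular protein, was higher than the control in each irradiated library with 62.9, 149.5, 167, 271 and 97.9 CPM, and without clusters 5, 7 and 8 its log2 ratios at 14 and 28 d were 0.79 and 1.46 in place of 1.41 and 2.11. Ntf3, a neurotrophin, was highest at 60 d (24.3, 32.9, 24.9, 48.7 and 70.4 CPM).

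Genes of the oxidative stress response were lower in the late libraries. Of 14 NRF2 targets and metallothioneins, 0, 2, 7 and 6 were 2-fold lower at 7, 14, 28 and 60 d and none was 2-fold higher. Of all genes 0.83%, 3.09%, 8.75% and 10.1% were 2-fold lower. The 28 d count was 4 without clusters 5, 7 and 8, and the 60 d count 3 among genes with 100 CPM. Hmox1, the haem oxygenase, stood at 236, 163, 136, 36.7 and 4.47 CPM and the thioredoxin reductase Txnrd1 at 540.1, 309.8, 252, 153 and 58.8 CPM. The other barcodes held Hmox1 at 263, 291, 51.5, 38.7 and 5.74 CPM, so the low values at 28 and 60 d were shared with the rest of those libraries. Several of the lowest ratios of the late libraries behaved alike. Btf3, a ribosome-associated factor, stood at 135, 83.3, 25.9, 11.4 and 44.7 CPM in the members and 171, 95.1, 64.6, 24.7 and 76.5 CPM in the other barcodes. Tomm6, a part of the mitochondrial import pore, stood at 54.01, 38.5, 17.2, 3.01 and 12.7 CPM, with 55.3 CPM in the other barcodes of the control and 4.21 CPM at 28 d.

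Some matrix genes were higher at 14 and 28 d, and fewer without the members of clusters 5, 7 and 8. Of 10 basement membrane genes measured, the collagen IV chains Col4a1 and Col4a2 and the endostatin precursor Col18a1 were 2-fold higher at 14 and at 28 d, and none at 7 or 60 d. Over all genes 2.87% and 4.79% were higher at 14 and 28 d. Col4a1 stood at 514, 612, 1307, 1203 and 398 CPM and Col18a1 at 258, 294, 564, 684 and 319 CPM. The 28 d count fell from 3 to 0 when the members of clusters 5, 7 and 8 (described further on) were left out, a choice made after seeing the data, and the 14 d count from 3 to 2. Cluster 5 was formed on the RNA of these same cells, and Fn1, Ccn2, Tnc, Col18a1, Mgp and Col8a1 are among its leading genes. Leaving it out therefore lowers such genes by construction, and the values without it show only where the RNA was concentrated. Of the interstitial matrix and elastic fibre genes, 0 of 20, 2 of 19, 6 of 21 and 1 of 19 were 2-fold higher and 0, 2, 2 and 5 lower. Over all genes 1.7%, 2.87%, 4.79% and 4.59% were higher and 0.83%, 3.09%, 8.75% and 10.1% lower. The 6 at 28 d were Mgp, Bgn, Col8a1, Col12a1, Fn1 and Tnc, and without clusters 5, 7 and 8 the counts at 14, 28 and 60 d were 1, 2 and 0. Mgp, which inhibits calcification of vessel walls, stood at 1869, 2188, 1836, 5309 and 3918 CPM and was 2-fold higher at 28 and 60 d, with log2 ratios of 1.51 and 1.07 that were 0.81 and 0.75 without those clusters. Elastin, Eln, stood at 163, 169, 231, 144 and 61.1 CPM and was 0.374 times (95% interval 0.306 to 0.456) the control level at 60 d. At 28 d its log2 ratio was -0.18, and -1.52 without those clusters. Tenascin C, Tnc, stood at 5.94, 11.1, 29.7, 82.4 and 15.6 CPM, from 10 UMIs in the control to 137 at 28 d, and its log2 ratio at 14 d was 0.22 without those clusters in place of 2.32. Ccn2, a matricellular target of TGF-beta, stood at 9.497, 16.3, 89.1, 97.4 and 29.04 CPM, and was 9.38-fold (95% interval 5.63 to 16.8) and 10.3-fold (95% interval 6.13 to 18.4) higher at 14 and 28 d. Without clusters 5, 7 and 8 its log2 ratio at 28 d was 1.26 in place of 3.36, and at 14 d 2.33 in place of 3.23. The inhibitor of DNA binding Id3, a target of BMP signals, stood at 1000.1, 602, 503, 389 and 420.0 CPM and Id1 at 107, 101, 149.9, 192 and 285 CPM, so Id3 was highest in the control and Id1 at 60 d.

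Some immediate early genes, a group that responds within minutes and also to tissue dissociation, were higher at 28 and 60 d. Of 26 measured, 0, 1, 4 and 5 were 2-fold higher and 1, 0, 3 and 3 lower. Over all genes 1.7%, 2.87%, 4.79% and 4.59% were higher and 0.83%, 3.09%, 8.75% and 10.1% lower. The lower counts at 28 and 60 d were thus near the shares over all genes. Fos stood at 2740.4, 3625, 4994, 5614 and 7626 CPM, Jun at 2022, 2845, 3748, 4524 and 5045 CPM and Fosb at 1760.5, 2640.0, 3618, 3722 and 3894 CPM, all lowest in the control and highest at 60 d. The phosphatase Dusp1 (358, 577, 573, 1070.3 and 1232 CPM) and the mRNA-decay factor Zfp36 (1210.3, 1066, 1275, 2115 and 2448 CPM) were also highest at 60 d. Egr1 (2454, 1794, 2378, 2131 and 2568 CPM) and Egr2 (34.4, 33.7, 54.1, 34.9 and 47.3 CPM), whose promoters hold CArG boxes, did not reach 2-fold in any library. Zfp36, whose promoter holds such a box too, was 2-fold higher at 60 d. Nr4a1, the orphan nuclear receptor also called Nur77, stood at 499.8, 379, 578, 405 and 566 CPM in the members and at 172, 305, 284, 286 and 229 CPM in fibroblasts, below 2-fold of the control in every library of the members. Nr4a2 (682, 608, 577, 428 and 545 CPM) and Nr4a3 (154, 156, 99.1, 92.00 and 83.03 CPM) did not reach 2-fold either. Fosl1, Myc and Maff were highest in the control, Maff at 649.9, 391, 332, 237 and 233 CPM.

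**Figure D4:**
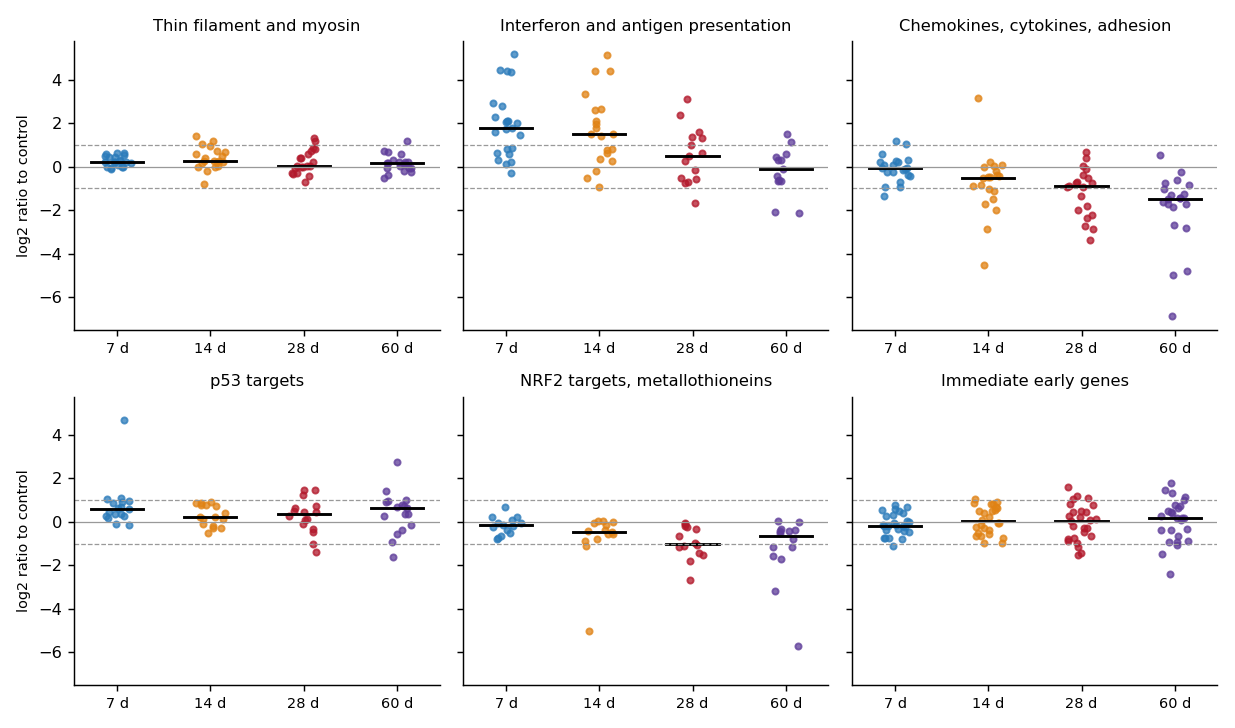
Log2 ratio to the control of each measured gene of 6 lists in the smooth muscle members (points, spread sideways at random; gate genes left out), with the list median as a bar and dashed lines at 2-fold. The interferon medians were 1.76 and 1.48 at 7 and 14 d, the chemokine medians were -0.07 at 7 d and -1.48 at 60 d, and 2 of the thin filament genes were 2-fold higher at 14 d and 2 at 28 d.

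Few genes were past 2-fold in the same direction in all 4 irradiated libraries. Of 4656 genes measured in all of them, 7 were higher (0.15%) and 12 lower (0.258%). The higher ones included Capg, Cym, Mmp2, Myof, RT1-T24-3 and Susd5. Without clusters 5, 7 and 8, Cym at 14 d (log2 ratio 0.84) and Mmp2 at 14 and 60 d (0.97 and 0.71) did not reach 2-fold. Cym, annotated as the aspartic protease chymosin, stood at 13.1, 62.9, 28.3, 41.5 and 86.8 CPM and was nearly confined to the members, with 0.218 to 2.17 CPM in the other barcodes. Susd5, a hyaluronan-binding protein, stood at 10.1, 27.4, 33.05, 47.5 and 39.8 CPM, with at most 0.289 CPM elsewhere. The gelatinase Mmp2 stood at 26.7, 212, 60.3, 129.9 and 65.9 CPM, while fibroblasts held 1081, 2788, 2829.9, 2175 and 1442 CPM. The lower ones were Batf, Cks2, Csf3, F3, Gmnn, LOC103689920, Pcp4, Samd3, Tmem18, Ugdh, Zkscan5 and Zswim4. Pcp4, a calmodulin-binding peptide listed among arrector pili genes, stood at 45.7, 18.9, 9.58, 0.601 and 9.31 CPM, from 77 UMIs in the control to 1 at 28 d, a ratio of 0.0132 (95% interval 0.0003 to 0.0755). F3, the tissue factor that starts coagulation, stood at 62.3, 20.4, 29.7, 19.8 and 10.8 CPM in the members, and at 153, 180.2, 340.5, 409 and 368 CPM in fibroblasts. Because the 4 comparisons share 1 control library, a control value that stands apart enters all of them.

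The members were not uniform. Clustered together they fell into 9 clusters, which are described and not tested, since all genes of these cells entered the clustering. Cluster 0 held 399 members, 339 of them from 60 d, cluster 2 held 309 with 278 from 28 d and cluster 3 held 247 with 239 from 14 d, while clusters 1 and 4 came almost wholly from the control and 7 d. Most members were thus sorted by library. Cluster 5 (83 members, 61 from 28 d) was led by Fn1, Plvap, Ccn2, Ccl22 and Sele, of which Plvap and Sele are endothelial. Cluster 6 (53 members, 10, 18, 0, 15 and 10 per library) was led by Il33, Ifitm1, Svil and Rgs16. Cluster 7 (47 members) had a median of 827 UMIs, and cluster 8 (22 members) was led by Krt14, Apoe and Krt17 with a median of 15089 UMIs. Cluster 7 thus had few UMIs and cluster 8 carried keratinocyte genes. A single 14 d member held 55 Plvap and 51 Sele UMIs, against 17 and 4 in all other 14 d members. In cluster 5 the endothelial genes Cdh5, Vwf, Kdr, Flt1 and Emcn had UMIs in 1.20% to 6.02% of members. They stood there at 18.4, 4.25, 25.5, 28.4 and 21.3 CPM, against 0.593, 0.198, 0.791, 1.78 and 0.692 CPM in the other members. Of the vascular smooth muscle markers in cluster 5, Sncg (4008 CPM against 2922 CPM in the other members), Pln and Susd5 were higher. Rergl, Mustn1, Bcam and Tesc were lower there and Map3k7cl nearly level. Clusters 5, 7 and 8 are left unnamed.

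Clustering within each library gave 4 to 7 clusters and a set that recurred in all 5 libraries, with Cwc25 and Atg16l1 among its 5 leading genes. It held 41 of 268 control members, 162 of 362 at 7 d, 118 of 318 at 14 d, 142 of 378 at 28 d and 39 of 398 at 60 d. Cxcl1 and Procr were among its leading genes at 14, 28 and 60 d. This clustering was added after seeing the data and is a description.

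A small group of members carried Il33, the nuclear alarmin, and was set apart after seeing the data as members with 2 or more Il33 UMIs. The control held 7 (2.61%, 95% interval 1.06 to 5.31) and the 7 d library 12 (3.31%, 1.72 to 5.72). The later libraries held 1 at 14 d (0.314%, 0.00796 to 1.74), 6 at 28 d (1.59%, 0.585 to 3.42) and 8 at 60 d (2.01%, 0.872 to 3.92). All intervals of these shares overlapped, those of 7 and 14 d only just, with a lower bound of 1.72 and an upper bound of 1.74. At the 2% gate the 14 d share was 0% and the 28 d share 4.90%. Without members with other-lineage UMIs the 14 d share was 0% as well. No interval was computed for these settings. The single 14 d member carried 55 Plvap UMIs (2657 CPM) and is not counted further. In the other 4 libraries the 33 Il33 members held no UMI of Rergl or Susd5, whereas Rergl was at 174 to 333 CPM in the remaining members. With 0 set to a floor of 3 UMIs per library, Rergl was 4.37-fold lower in the control, 8.84-fold at 7 d, 2.005-fold at 28 d and 8.57-fold at 60 d. The upper bounds of the 95% intervals were 0.283, 0.139, 0.617 and 0.144 times the level of the remaining members. Further genes low in the Il33 members were Pln with 25.9 to 83.2 CPM against 775 to 1250 CPM, Avpr1a with 38.9 to 99.9 CPM against 317 to 665 CPM, and Mgp with 144 to 483 CPM against 1920 to 5418 CPM.

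Several genes of the contractile filaments were higher in the Il33 members, and Tagln was not among them. Des stood at 2796 to 6935 CPM against 1554 to 2242 CPM, Myl9 at 6870 to 10085 CPM against 3453 to 4062 CPM, and Synpo2, an actin-bundling protein of visceral muscle, at 383 to 520 CPM against 95.4 to 119.9 CPM. Supervillin, Svil, which ties myosin and actin to the membrane, stood at 233 to 636 CPM against 8.05 to 17.8 CPM. Tagln was lower in 3 of the 4 libraries, with 6887 to 13004 CPM against 9908 to 11142 CPM, and Actg2 was higher in 3 and lower at 7 d (0.735 times). Ifitm1 stood at 665 to 1044 CPM against 14.6 to 76.8 CPM, and the guidance ligand Slit2 at 57.8 to 337 CPM against 1.53 to 10.1 CPM. The fibroblast gene Dpt was also higher, at 143 to 526 CPM against 12.3 to 87.4 CPM, as was Fn1 at 272 to 388 CPM against 38.2 to 126 CPM. In cluster 6, which was led by Il33, the fibroblast markers Lum, Pi16, Mfap5 and Pdgfra were higher too. They stood there at 140, 12.9, 32.3 and 4.31 CPM, against 13.8, 2.61, 13.9 and 1.16 CPM in the other members. The part of fibroblast RNA in these values was not tested. Of the arrector pili list, in the Il33 members Itga8 was higher in 3 of 4 libraries and Npnt had 2 UMIs in all. Ifi27l2b at 7 d stood at 5420 CPM in the 12 Il33 members and at 437 CPM in the others, and these 12 held 628 of the 1758 Ifi27l2b UMIs of all 7 d members. Leaving the Il33 members out changed no recomputed count of called genes or list by more than 1.5 times, except the interstitial matrix genes 2-fold higher at 60 d, which were 2 in place of 1.

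**Figure D5:**
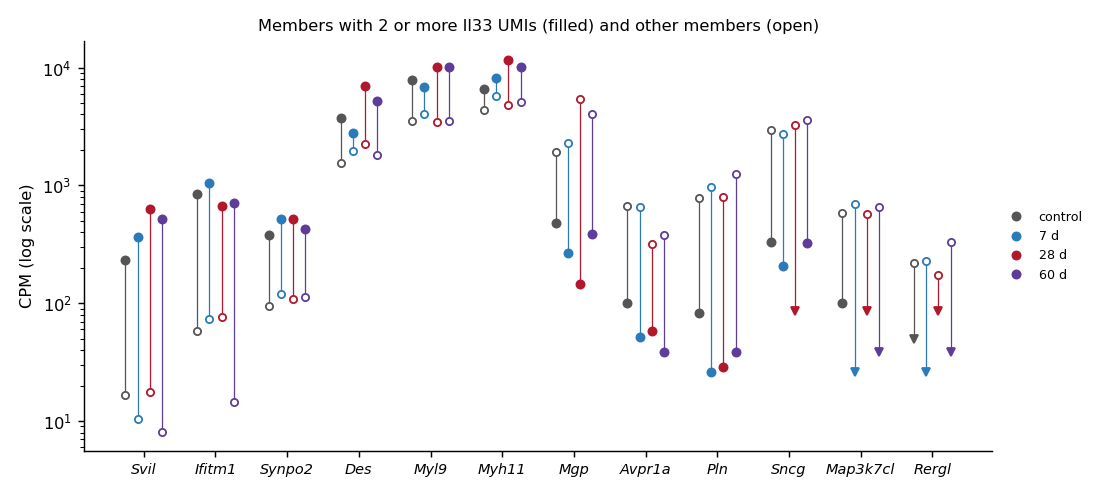
Levels (CPM, log axis) in the members with 2 or more Il33 UMIs (filled) and in the other members of the same library (open), for the control, 7, 28 and 60 d libraries with 7, 12, 6 and 8 such members. Triangles mark genes with no UMI, drawn at the floor of 3 UMIs. Svil, Ifitm1, Synpo2, Des, Myl9 and Myh11 were higher in the Il33 members of all 4 libraries, and Mgp, Avpr1a, Pln, Sncg, Map3k7cl and Rergl lower.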

How the data were processed

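Single-cell 3′ RNA libraries of 5 rat skin samples were compared, 1 per group, so no test across libraries was made. The deposited values were counts, whole UMIs per gene and barcode that the authors made from their reads, and every deposited barcode held at least 500 UMIs. The submitters' processing notes name Cell Ranger 5.0.0, STAR, Seurat 3.1.1 and the Rnor_6.0 build, without saying how barcodes were chosen. Of 32623 gene rows, 2753 shared a symbol with another row and were summed to 30017 symbols. The members and the gene lists were chosen with earlier results of these data known.

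Barcodes were filtered on 500 UMIs, 300 genes and 20% mitochondrial UMIs. Member counts were summed per library and scaled to CPM with exact Poisson intervals, ratios carry exact conditional binomial intervals and shares Clopper-Pearson intervals. A count of 0 was set to 3 counts in a ratio. Genes with 50 UMIs over both libraries and 20 CPM in either were compared. Members were clustered by the Leiden method (leidenalg 0.10.2) on 1500 variable genes, 20 components and 15 neighbours at resolution 0.5. Mitochondrial, ribosomal, immediate early and heat shock genes were left out of the clustering. Python 3.11.15, numpy 2.4.6, pandas 2.3.3 and scipy 1.17.1 were used.

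Per comparison the 8 highest and 8 lowest ratios were eligible for naming, among genes with 50 CPM and UMIs in 10% of members where they were higher, and there at least 0.2 of the level in other barcodes. From each list the most abundant members were named, and further genes were named after their values were seen. Some measured genes are not reported here. Doublets were not removed. A simulated-doublet score served as an alternative without the top 5%. Pairs of libraries shared 11 to 41 barcode sequences, and 1 member barcode of the control also occurred at 14 d. The calls were tested on simulated counts, in which 97 of 98 genes changed 3-fold and 6 of 4523 unchanged genes were called in the 7 d comparison. At 14 d 10 of 4530 unchanged genes were called, and at 28 d 95 of 98 genes changed 3-fold. These counts were drawn from the control members' means with counting error only. They hold no variation between animals, dissociations, libraries or cells, so they give no rate of false calls for the real comparisons. Alternatives were a 2% gate, a stricter barcode filter, other CPM filters, other scalings, equal weight per member, and members without pericyte genes, without UMIs of other lineages, without high doublet scores, without Il33 members or without clusters 5, 7 and 8. The last 2 of these, the scaling without mitochondrial rows, the search with 1 mismatch and the clustering within libraries were chosen after seeing the data.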

Additional observations from a re-analysis of the deposited data

Results flagged for a closer look

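F3, the tissue factor that starts coagulation, was lower than the control in the smooth muscle members of each irradiated library and higher than the control in the fibroblasts of the same libraries. In the members its log2 ratios to the control, in the order 7, 14, 28 and 60 d, were -1.61, -1.07, -1.65 and -2.53. In fibroblasts they were 0.23, 1.15, 1.41 and 1.26. The opposite signs drew attention to it, and the difference between the cell types was not tested, since each group is 1 library. The 14 d fibroblast value rests on 76 barcodes, and all ratios share the control library, in which the members held 105 F3 UMIs.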

How the results depend on the processing

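No paired analysis was possible because each group is 1 library, and for the same reason no library could be left out. No ratio of a gene that the naming rule chose changed its direction under any alternative, but list medians and the balance of called genes did. The rule chose these genes for the highest and lowest ratios in these same data, so a change of direction was unlikely from the outset. The 2% gate gave shares of 0.965%, 1.64%, 3.87%, 1.13% and 2.67% in the order control, 7, 14, 28 and 60 d. Without members with pericyte genes the shares were 2.83% at 7 d and 6.48% at 14 d. The stricter barcode filter gave 2.91% at 28 d and 3.60% at 60 d, and leaving out clusters 5, 7 and 8 gave 3.44% and 4.18%. In all of these settings the 14 d share was the highest.

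Genes 2-fold higher at 28 d numbered 118 at the 2% gate and 136 without clusters 5, 7 and 8. With no CPM filter, 637 genes were higher and 290 lower at 7 d, 670 and 537 at 14 d, 948 and 849 at 28 d, and 1086 and 960 at 60 d. At 100 CPM the counts were 13 and 6, 32 and 45, 67 and 186, and 36 and 200. Lower genes outnumbered higher ones at 14, 28 and 60 d at the main filter, and higher genes outnumbered lower ones in every library with no CPM filter. The counts thus depend on how many weakly expressed genes are compared.

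The chemokine list had 0 members 2-fold lower at 7 d at the 2% gate and with equal weight, and 2 without members with other-lineage UMIs, with median-of-ratios scaling and with no CPM filter. At 14 d it had 3 at the 2% gate and 4 at 100 CPM, at 28 d 5 at 100 CPM, and at 60 d 7 at the 2% gate and 9 at 100 CPM. The interferon list had 5, 4, 1 and 0 members higher at 100 CPM at 7, 14, 28 and 60 d, 9 and 4 at 28 and 60 d with no CPM filter, and 1 at 60 d with equal weight. The interferon median at 28 d was 0.50 over 15 genes and -0.52 over 5 at 100 CPM, and at 60 d -0.13, against 0.20 with the stricter barcode filter. At the 2% gate the median of the actin filament regulators at 60 d was -0.11 in place of 0.13. The p53 count at 60 d, 2 in the main setting, was 1 at the 2% gate and at 100 CPM, 4 with the stricter barcode filter and without mitochondrial rows, and 5 with no CPM filter, which gave 6 at 28 d. Actin filament regulators with a CArG box numbered 2 when 1 middle letter could be C or G. For all these the cause was not tested. Of 768 ratios of named genes over all alternatives, 34 moved beyond their interval. With no CPM filter and at 100 CPM a ratio stays the same by construction, so the 64 ratios under each could not move. Depth limits the weak genes, since the members of the 28 d library, the shallowest, held 1663123 UMIs in all.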

Other observations

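Proliferation genes were scarce in the smooth muscle members. Only 4 of 22 listed genes were abundant enough to compare, and none was 2-fold higher in any irradiated library. Hmgb2, a chromatin protein of dividing cells and the one gene past 2-fold, was lower at 28 d, with 179.8, 124, 162, 84.2 and 92.3 CPM in the order control, 7, 14, 28 and 60 d. Of 20 listed genes of oxidative metabolism, 11 were measured. Of these 0 passed 2-fold in any library, with median log2 ratios of 0.10, -0.11, -0.20 and 0.15. The median mitochondrial share of the members was 5.76% in the control, 9.41% at 28 d and 8.19% at 60 d. Among all genes 1.7%, 2.87%, 4.79% and 4.59% were 2-fold higher at 7, 14, 28 and 60 d, and 0.83%, 3.09%, 8.75% and 10.1% lower. Of 10 measured genes of Notch and PDGF signalling, which hold mural cells on the vessel wall, none passed 2-fold, and Notch3 stood at 34.4, 42.2, 56.5, 37.3 and 28.7 CPM.

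Of the pericyte markers, Cspg4, the NG2 proteoglycan, was 2-fold higher at 28 and 60 d, with 70.6, 121, 139.9, 159.9 and 164 CPM, and Vtn, which encodes vitronectin, was 2-fold lower at 28 d, with 58.2, 69.6, 60.3, 22.2 and 70.7 CPM. The pericyte regulator Rgs5 stood at 75.4, 66.3, 79.03, 88.99 and 56.6 CPM. Barcodes gated as pericyte-like numbered 116, 59, 2, 18 and 2, so smooth muscle and pericytes could be set side by side only in the first 2 libraries. Tesc, a calcium-binding protein listed among vascular smooth muscle markers, was 2-fold lower at 28 d alone, with 149.6, 141, 91.5, 30.7 and 144 CPM. Of the skeletal muscle markers, Acta1 was 2-fold higher at 14 and 60 d, and Myod1 and Ckm did not have enough UMIs to compare.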
